A study of Mus musculus with 2 samples.

Results

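The genes described here are those for the insulin-like growth factor binding proteins Igfbp2, Igfbp3, Igfbp4, Igfbp5, Igfbp6 and Igfbp7. They were found by symbol in a table of 29126 entries. Each of the 6 genes has 1 entry with a single symbol and the Cuffdiff status OK, which marks entries with enough reads for quantification. The table gives the messenger RNA level of each entry in mouse embryonic fibroblasts (MEFs). The levels come from strand-specific mRNA-seq of 1 Dnmt1+/+ library and 1 Dnmt1-/- library. Dnmt1 encodes the maintenance DNA methyltransferase, which copies CpG methylation onto newly made DNA. The study asked whether a strong loss of DNA methylation alters transcription by redistributing H3K27me3, the repressive histone mark set by the Polycomb complex PRC2. Its histone mark, DNA methylation and microarray data were not used here. The Dnmt1-/- MEFs are homozygous for a hypomorphic Dnmt1 allele rather than a full deletion. Both lines are also null for the p53 gene, so neither library has p53 function. The strain is given as unknown in the labels, and no age, passage or number of embryos is given in the sources used here. There is 1 library per genotype, so nothing here has a replicate check, no p-value is given, and genotype and library cannot be told apart.

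Insulin-like growth factor binding proteins are secreted proteins that bind IGF1 and IGF2 outside the cell, lengthen their life and control how much reaches the receptor Igf1r. Proteases such as the pappalysins cut some of them and release the growth factor, and several also act on cells without binding a growth factor. Igfbp7 is the divergent member, with low affinity for the growth factors. Fibroblasts are known to make several of these proteins.

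Igfbp4, Igfbp7 and Igfbp6 were higher in the Dnmt1-/- library and Igfbp2 and Igfbp5 were lower, so the family moved in both directions. Igfbp4 was the most abundant of the 6 genes in both libraries and had the largest gain, 7.97-fold. Igfbp2, the fourth most abundant in Dnmt1+/+ MEFs, was 29.7-fold lower, a log2 change of -4.60. Igfbp5 was lower from a level close to 1 RPKM, and the size of its change depended on the pseudocount, with a log2 change of -3.25 on the scale used here and -1.03 with a pseudocount of 1. Igfbp3 stayed under 1 RPKM in both libraries. RPKM is a read number divided by the length of the transcript and by the size of the library, so levels of different genes can be set beside each other.

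Sequences just upstream of the annotated start sites are shown because they differ widely in CG content among these genes. Among those that moved the same way, the wide difference rests on Igfbp6, whose window is not printed and is counted below. Windows are printed for the pair of genes with the highest levels, which were higher in Dnmt1-/- MEFs. They are also printed for the adjacent genes Igfbp2 and Igfbp5, which were lower. Each is the 300 bases before the GENCODE start site, read from the mouse genome build NCBIM37 (mm9), 5′ to 3′ on the gene's own strand, with every CG dinucleotide, the target of Dnmt1, in capitals. The windows are chr11:98902258-98902557 on the plus strand for Igfbp4, chr5:77837071-77837370 on the minus strand for Igfbp7, chr1:72870777-72871076 on the plus strand for Igfbp2 and chr1:72921459-72921758 on the minus strand for Igfbp5.
Igfbp4: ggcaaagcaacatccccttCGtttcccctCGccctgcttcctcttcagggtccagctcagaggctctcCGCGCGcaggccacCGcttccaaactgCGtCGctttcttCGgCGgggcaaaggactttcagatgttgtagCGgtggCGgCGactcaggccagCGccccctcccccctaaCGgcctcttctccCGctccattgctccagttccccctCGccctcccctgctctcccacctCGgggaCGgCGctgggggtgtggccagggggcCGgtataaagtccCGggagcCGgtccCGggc
Igfbp7: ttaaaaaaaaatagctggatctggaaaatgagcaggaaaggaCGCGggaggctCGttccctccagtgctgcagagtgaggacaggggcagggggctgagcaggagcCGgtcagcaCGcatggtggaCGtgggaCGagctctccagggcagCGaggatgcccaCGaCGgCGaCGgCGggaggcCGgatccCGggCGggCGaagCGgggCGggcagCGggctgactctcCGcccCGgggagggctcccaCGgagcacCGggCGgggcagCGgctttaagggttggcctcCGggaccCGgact
Igfbp2: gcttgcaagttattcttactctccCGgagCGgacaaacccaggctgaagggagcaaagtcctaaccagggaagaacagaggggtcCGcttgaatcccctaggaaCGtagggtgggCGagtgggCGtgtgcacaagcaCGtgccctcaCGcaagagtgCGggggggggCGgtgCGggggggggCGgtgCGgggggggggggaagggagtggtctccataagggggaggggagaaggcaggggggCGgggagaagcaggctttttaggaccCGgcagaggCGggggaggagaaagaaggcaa
Igfbp5: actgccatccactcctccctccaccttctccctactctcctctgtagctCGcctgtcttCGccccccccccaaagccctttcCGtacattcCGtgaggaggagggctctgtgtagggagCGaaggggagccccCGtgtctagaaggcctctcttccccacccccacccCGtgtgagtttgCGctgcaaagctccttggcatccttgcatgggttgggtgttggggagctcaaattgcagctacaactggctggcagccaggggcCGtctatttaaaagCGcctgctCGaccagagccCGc

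The Igfbp7 window held 28 CG dinucleotides and the Igfbp4 window 24, which was more than in 87.7% and 81.8% of the 22374 protein-coding promoters of the same length. The Igfbp2 window held 16 and the Igfbp5 window 12. The windows not printed lay at either end of this order, with 32 CG dinucleotides at Igfbp3 and 8 at Igfbp6, against a median of 9 over all promoters. By these windows, Igfbp6 and Igfbp7 were higher in Dnmt1-/- MEFs by nearly the same factor, one with a CG count close to the median promoter and the other with a count well above it. The Igfbp6 entry begins 969 bases upstream of the GENCODE start site, so this window lies inside the entry. It may not be the promoter used in these cells, and the contrast with Igfbp7 is uncertain for that reason. Among all kept genes, defined with the next values, the median count was 10 in those higher by over 2-fold in Dnmt1-/- MEFs, 15 in those lower by over 2-fold and 18 in the rest. The letters TATAAA, searched on both strands, were found in the Igfbp4 window alone among the members and in 14.6% of all promoters. TATATA, searched likewise, was found only in the Igfbp3 window and in 6.04% of promoters. In the windows of the RefSeq table, built on another assembly and running past the start site, Igfbp6 again had 8 CG dinucleotides, Igfbp5 10, Igfbp4 27, Igfbp7 33 and Igfbp3 37, and the 2 windows listed for Igfbp2 had 14 and 18. These counts describe the letters of the reference genome, and methylation of these windows was not analysed here.

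Changes are given as the difference of log2(RPKM + 0.1), Dnmt1-/- minus Dnmt1+/+, a scale that understates the change of low genes. Of the 23075 entries with status OK, 14865 have a gene symbol, and the 11244 of these with at least 1 RPKM in either library are called kept genes. Their median log2 change was -0.14, with quartiles of -0.56 and 0.27. Of the kept genes 952, or 8.47%, were higher by over 2-fold in Dnmt1-/- MEFs, and 1225, or 10.9%, were lower by over 2-fold. Beside this background stand 3 of the 6 Igfbp genes above 2-fold and 2 below it, while Igfbp3 failed the 1 RPKM filter. Both lower genes, Igfbp2 and Igfbp5, passed that filter only through the Dnmt1+/+ library, and Igfbp5 by a small margin. Over all 6 genes the log2 changes ran from -4.60 to 2.99, with a median of 0.54. Dnmt1 itself was at 65.2 RPKM in Dnmt1+/+ and 14.5 RPKM in Dnmt1-/- MEFs, a log2 change of -2.16.

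**Figure D1:**
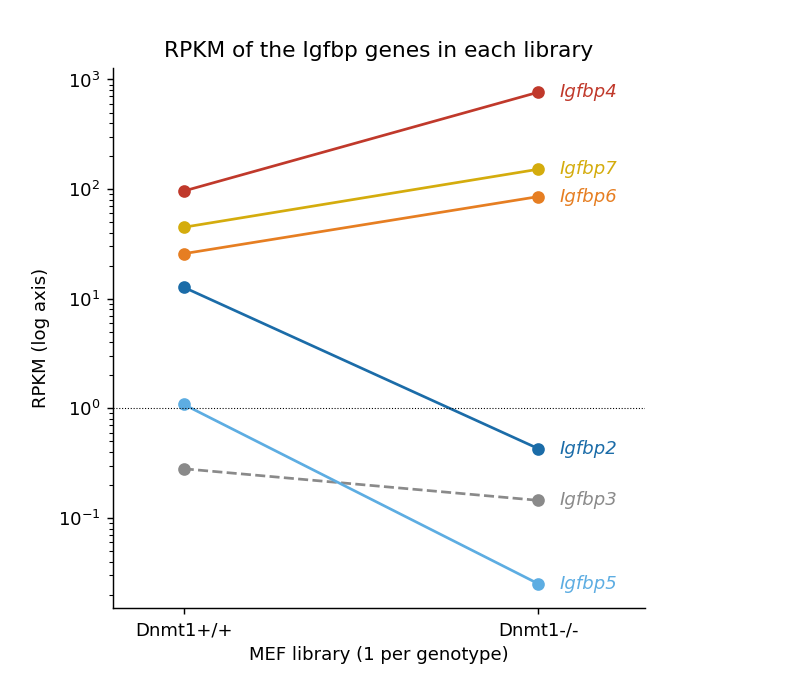
RPKM of each of the 6 Igfbp genes (log axis) in the Dnmt1+/+ and the Dnmt1-/- library, 1 point per library, with the dotted line at 1 RPKM and a dashed line for Igfbp3, which stayed under it. Igfbp4, Igfbp7 and Igfbp6 keep their order and are higher in Dnmt1-/- MEFs, while Igfbp2 goes from 12.7 to 0.429 RPKM and Igfbp5 from 1.09 to 0.0251 RPKM.

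Igfbp4 was measured at 96.1 RPKM in Dnmt1+/+ MEFs and 766.2 RPKM in Dnmt1-/- MEFs, a log2 change of 2.99. Its protein binds both IGF1 and IGF2, is best known for holding back IGF action, and is the classic substrate of Pappa. In Dnmt1+/+ MEFs it was already above 94.1% of the kept genes by level, and in Dnmt1-/- MEFs it was above 99.6% of them. A larger log2 rise was seen in 311 kept genes. The gene, ENSMUSG00000017493.5, lies on chromosome 11 at 98902558 to 98913969 on the plus strand.

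Igfbp7 was at 44.9 RPKM in Dnmt1+/+ and 151.9 RPKM in Dnmt1-/- MEFs, 3.38-fold higher, with a log2 change of 1.76. It moved from above 84.9% to above 96.6% of the kept genes by level, and 573 kept genes had a larger rise. The gene, ENSMUSG00000036256.6, spans chromosome 5 from 77778265 to 77837070 on the minus strand. Its entry carries a locus, 77723194 to 77837091, that the entries of Polr2b and 2610024G14Rik also list, so the values at this locus are uncertain where the genes overlap. Polr2b, the second largest subunit of RNA polymerase II, was at 28.6 and 27.7 RPKM, and 2610024G14Rik at 5.78 and 6.68 RPKM in Dnmt1+/+ and Dnmt1-/- MEFs, so the rise was listed for Igfbp7 alone of the entries at that locus.

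Igfbp6 was at 25.8 RPKM in Dnmt1+/+ and 85.5 RPKM in Dnmt1-/- MEFs, 3.32-fold higher, with a log2 change of 1.73. Its protein has a strong preference for IGF2 over IGF1. It moved from above 73.4% to above 92.8% of the kept genes by level, and 586 kept genes had a larger rise. Igfbp6 and Igfbp7 thus changed by almost the same factor, with an Igfbp7 to Igfbp6 ratio of RPKM of 1.74 in the Dnmt1+/+ library and 1.78 in the other. The ratio of Igfbp4 to Igfbp7 instead went from 2.14 to 5.04. Igfbp6, ENSMUSG00000023046.6, lies on chromosome 15 at 101974793 to 101979942 on the plus strand. Its entry begins 969 bases upstream of that start site, so which start was used in these cells is uncertain.

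Igfbp2 was at 12.7 RPKM in Dnmt1+/+ and 0.429 RPKM in Dnmt1-/- MEFs, a log2 change of -4.60. Its protein binds both growth factors, is abundant in fetal tissue and the circulation, and carries an RGD motif that binds integrins. By level it passed from the middle of the kept genes, above 53.4% of them, to near the bottom, above 2.46%, and only 74 kept genes fell further. Igfbp5, whose protein binds to extracellular matrix and can also join the large circulating complex with Igfals, was at 1.09 RPKM in Dnmt1+/+ and 0.0251 RPKM in Dnmt1-/- MEFs, a log2 change of -3.25. Its starting level was above just 5.58% of the kept genes, and its value in Dnmt1-/- MEFs has no read count behind it in the table, so the size of its change is poorly defined: it was -1.03 with a pseudocount of 1 and -4.97 with 0.01.

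Igfbp2 and Igfbp5 are direct neighbours. Igfbp2, ENSMUSG00000039323.11, lies on chromosome 1 at 72871077 to 72899048 on the plus strand, and Igfbp5, ENSMUSG00000026185.8, at 72904506 to 72921458 on the minus strand, so the genes run toward each other and their ends are 5457 bases apart. In Dnmt1+/+ MEFs Igfbp2 was the higher of the pair, and in Dnmt1-/- MEFs both were under 1 RPKM. The other kept genes within 250 kb of the pair were Rpl37a, a ribosomal protein gene, at 184.2 and 197.0 RPKM, and Smarcal1, an annealing helicase gene, at 3.42 and 3.60 RPKM in Dnmt1+/+ and Dnmt1-/- MEFs. Both were within 2-fold, so the lower values were listed for the Igfbp pair and not for these kept genes. Rpl37a and Smarcal1 both lie on the Igfbp2 side, and no kept gene lay within 250 kb on the Igfbp5 side.

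Igfbp3, the main carrier of IGFs in the blood and a known target of p53, was at 0.282 RPKM in Dnmt1+/+ and 0.145 RPKM in Dnmt1-/- MEFs, a log2 change of -0.64. Both values lay below 1 RPKM and the change was within 2-fold. The gene, ENSMUSG00000020427.5, lies on chromosome 11 at 7106089 to 7113926 on the minus strand, 3539 bases from Igfbp1. Igfbp1 and the related Igfbpl1 were listed at 0 in both libraries with status NOTEST, so 3 genes of the wider family had no level of 1 RPKM in these fibroblasts.

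**Figure D2:**
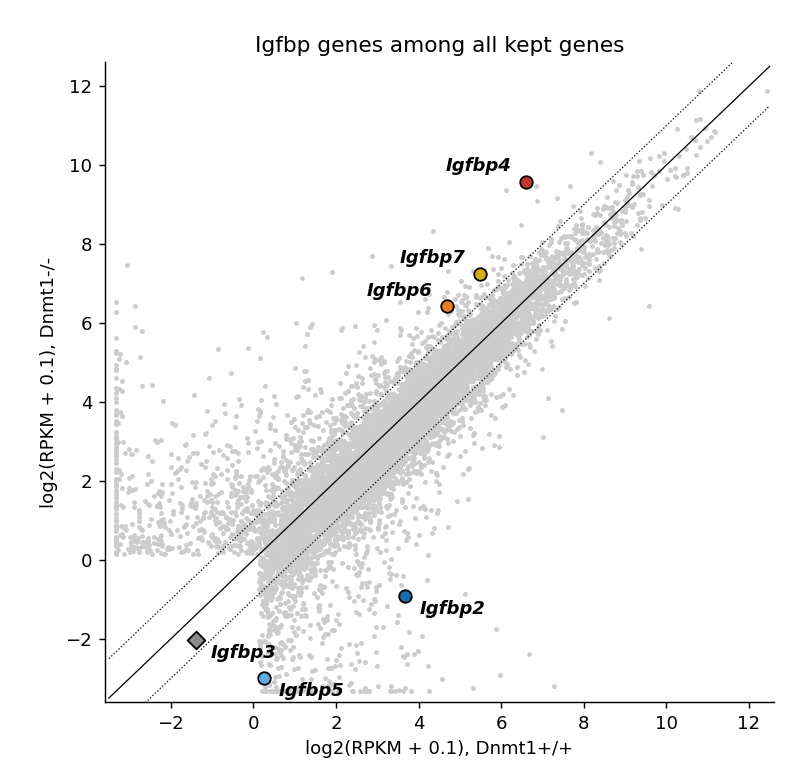
Each grey point is 1 of the 11244 kept genes, with log2(RPKM + 0.1) in Dnmt1+/+ MEFs on the x axis and in Dnmt1-/- MEFs on the y axis, the solid line at equal values and dotted lines at 2-fold. Coloured points are the Igfbp genes, with a diamond for Igfbp3, which was not a kept gene; 3 lie above the upper dotted line, 2 lie below the lower one, and Igfbp4 sits near the top of the Dnmt1-/- scale.

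Because RPKM is per length, the 6 levels can be added within a library. The sum was 180.9 RPKM in Dnmt1+/+ and 1004.2 RPKM in Dnmt1-/- MEFs, 5.55-fold higher, or 2.47 as a log2 ratio. Igfbp4 made up 53.1% of the sum in Dnmt1+/+ and 76.3% in Dnmt1-/- MEFs. Without it the sum was 84.8 and 238.0 RPKM, 2.81-fold higher, so the total depended on that 1 gene for much of its rise. The share of Igfbp7 went from 24.8% to 15.1% and that of Igfbp6 from 14.3% to 8.52% although both genes were higher, since Igfbp4 gained more. Igfbp2 made up 7.04% of the sum in Dnmt1+/+ and 0.0428% in Dnmt1-/- MEFs. Igfbp4, Igfbp6 and Igfbp7 together made up 92.2% and 99.9% of the sum. In order of level the genes were Igfbp4, Igfbp7, Igfbp6, Igfbp2, Igfbp5 and Igfbp3 in Dnmt1+/+ MEFs, and the order in Dnmt1-/- MEFs differed only in that Igfbp3 stood before Igfbp5. With 1 library each, whether neighbours in this order differ beyond their spread cannot be said.

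**Figure D3:**
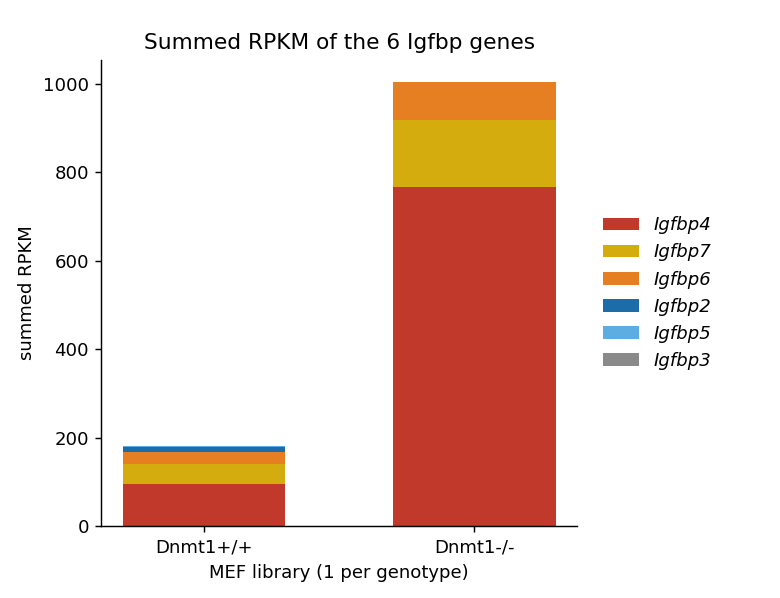
Summed RPKM of the 6 Igfbp genes (linear axis from 0) in each library, 1 library per genotype, with a coloured part for each gene. The bar is 180.9 RPKM tall in Dnmt1+/+ and 1004.2 RPKM in Dnmt1-/- MEFs, where Igfbp4 takes 76.3% of it and the parts of Igfbp2, Igfbp3 and Igfbp5 are too thin to see.

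Within 250 kb of the 6 loci lay 27 other kept genes, with 3 higher by over 2-fold, 0 lower by as much and 24 within 2-fold, beside shares of 8.47% higher and 10.9% lower over all kept genes. The share of higher genes among them is near that background. Around Igfbp4 all 7 kept genes lay between -0.01 and 0.45 on the log2 scale. The nearest on its upstream side was Top2a, the topoisomerase of dividing cells, 17.0 kb away, at 223.1 RPKM in Dnmt1+/+ and 275.9 RPKM in Dnmt1-/- MEFs. On the other side the nearest kept gene was Smarce1, a SWI/SNF chromatin remodelling subunit, 156.4 kb away, at 50.5 and 56.1 RPKM. Tns4 lay closer on that side but was under 1 RPKM in both libraries and not kept. It was at 0.00718 RPKM in Dnmt1+/+ and 0.593 RPKM in Dnmt1-/- MEFs, a log2 change of 2.69. Rapgefl1, upstream of Igfbp4 and also not kept, was at 0.637 and 0.373 RPKM, a log2 change of -0.64. All 12 kept genes near Igfbp6 lay between -0.46 and 0.54, among them Soat2, which makes cholesterol esters and begins 951 bases past the end of the Igfbp6 entry, at 1.17 and 0.826 RPKM. Spryd3, 7.18 kb upstream of the Igfbp6 entry, was at 27.6 and 33.2 RPKM. Krt18 and Krt8, also near Igfbp6, were under 1 RPKM in both libraries and not kept. Krt18 was at 0.0358 RPKM in Dnmt1+/+ and 0.441 RPKM in Dnmt1-/- MEFs, and Krt8 was listed at 0 and at 0.216 RPKM.

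Near Igfbp7, 2 of the 5 kept genes were higher by over 2-fold. Spink2, a serine protease inhibitor known from the testis, lay 82.7 kb from the shared locus and was at 0.277 RPKM in Dnmt1+/+ and 2.38 RPKM in Dnmt1-/- MEFs, a log2 change of 2.72. Hopx, an atypical homeodomain protein that does not bind DNA, lay 179.0 kb away and was at 1.35 and 4.51 RPKM, a log2 change of 1.67. Rest, the repressor of neuronal genes, was closer than either at 7.78 kb and was at 14.9 and 16.7 RPKM. The single kept gene near Igfbp3, the adenylate cyclase Adcy1 at 27.6 kb, was at 1.57 RPKM in Dnmt1+/+ and 4.65 RPKM in Dnmt1-/- MEFs, opposite in direction to the small difference of Igfbp3.

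**Figure D4:**
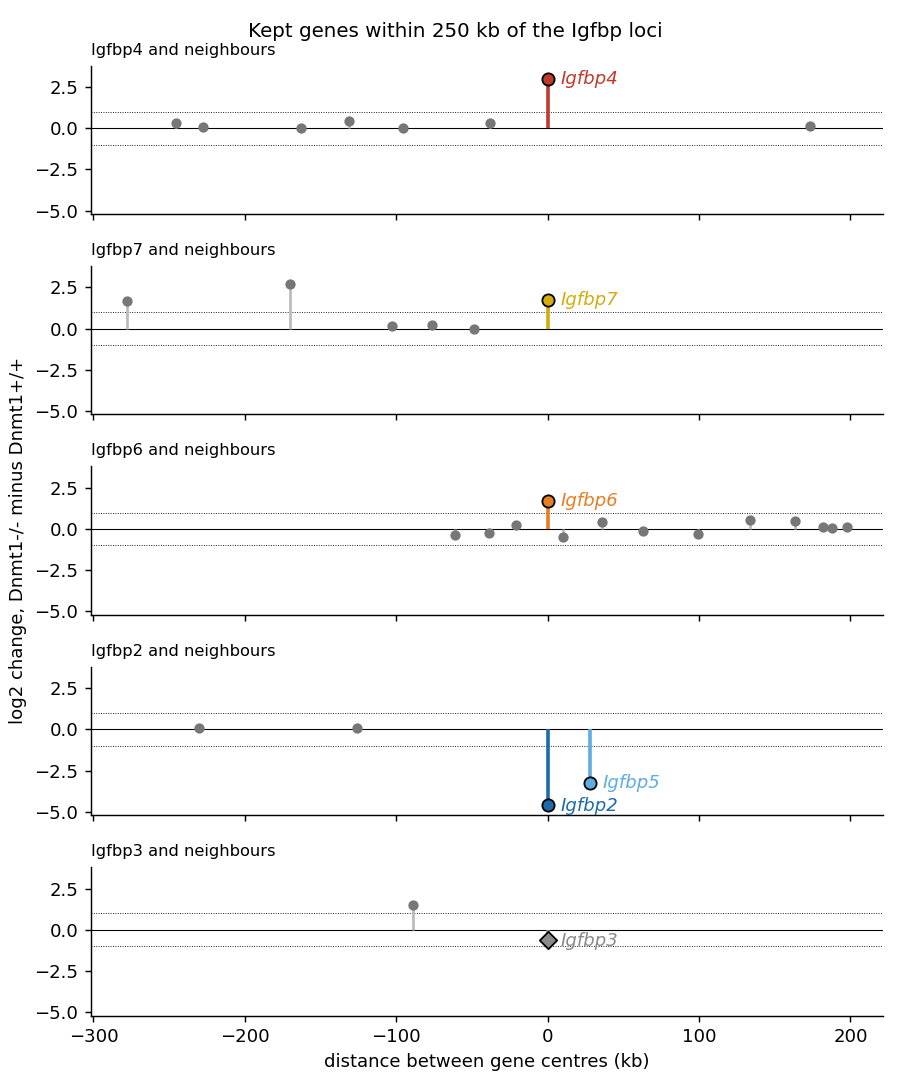
Log2 change, Dnmt1-/- minus Dnmt1+/+, of each Igfbp gene (coloured) and of the 27 other kept genes within 250 kb between locus ends (grey), against the distance between gene centres in kb, with dotted lines at 2-fold and a diamond for Igfbp3, which was not a kept gene. The neighbours of Igfbp4, Igfbp6, Igfbp2 and Igfbp5 lie between the dotted lines, while 2 neighbours of Igfbp7 and the neighbour of Igfbp3 lie above them.

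Cufflinks assembles loci of its own, so RNA from a gene can also be listed under an entry without a symbol. No such entry overlapped an Igfbp locus, and 4 lay within 5 kb. Upstream of Igfbp4 an entry of 319 bases, 990 bases away, was at 0.894 RPKM in Dnmt1+/+ and 3.59 RPKM in Dnmt1-/- MEFs, and an entry of 428 bases, 66 bases away, was at 1.68 and 2.39 RPKM. Both were higher in Dnmt1-/- MEFs, as was Igfbp4, and far below it in level. Upstream of Igfbp6 the entries 1125 and 1461 bases away went the other way from the gene, from 3.77 to 2.30 RPKM and from 1.01 to 0.330 RPKM.

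Of the ligands and receptors of the IGF system, Igf2 and Igf2r were far lower in Dnmt1-/- MEFs, Igf1 was low in both libraries, and Igf1r and Insr were within 2-fold. Of 27 other genes of the IGF system all were found and 18 were kept. Of the kept ones 3 were higher by over 2-fold, 6 were lower by over 2-fold and 9 lay within 2-fold, beside shares of 8.47% higher and 10.9% lower over all kept genes. Their median log2 change was -0.32 against -0.14 over all kept genes. Igf2, Igf2r, Grb10 and Pappa2 passed the filter through the Dnmt1+/+ library alone, and Igf1 through the Dnmt1-/- library alone. Among the ligands, Igf2, the fetal growth factor, was at 18.5 RPKM in Dnmt1+/+ and 0.0544 RPKM in Dnmt1-/- MEFs, and Igf1 was at 0.490 and 1.09 RPKM. The insulin genes Ins1 and Ins2 were listed at 0 in both. The signalling receptor Igf1r was at 10.4 and 13.7 RPKM and the insulin receptor Insr at 7.67 and 4.35 RPKM, both within 2-fold. Igf2r, which clears IGF2 and is imprinted like Igf2 and Grb10, was at 34.6 and 0.450 RPKM. Thus in Dnmt1-/- MEFs the summed binding protein RNA was higher while Igf2 RNA was near 0 and Igf1r RNA was within 2-fold.

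Downstream of the receptors the adaptor Irs1 was within 2-fold, with a log2 change of 0.49, whereas Irs2 was lower, at 16.0 RPKM in Dnmt1+/+ and 4.62 RPKM in Dnmt1-/- MEFs. Grb10, an adaptor that damps insulin and IGF receptor signalling, was at 102.7 and 0.0907 RPKM. The related Grb14 was at 4.93 and 3.37 RPKM, within 2-fold.

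The genes that act on the binding proteins themselves did not move as one. Pappa, the protease that cuts Igfbp4, was under 1 RPKM in both libraries, at 0.400 RPKM in Dnmt1+/+ and 0.0629 RPKM in Dnmt1-/- MEFs, and its relative Pappa2, which cuts Igfbp5, was at 1.95 and 0.168 RPKM. Stc2, a stanniocalcin that inhibits Pappa, was at 1.87 and 3.96 RPKM, and its relative Stc1 was at 0.130 RPKM and listed at 0. Adam12, a metalloprotease that cuts Igfbp3 and Igfbp5, was higher in Dnmt1-/- MEFs, from 1.43 to 7.29 RPKM. Adamts1, a matrix protease, was lower, from 99.7 to 31.1 RPKM, and the serine protease Htra1 was at 67.6 and 63.2 RPKM. With a pseudocount of 1, Adam12 alone remained more than 2-fold higher on this list, since Stc2 then changed by 0.79 and Igf1 by 0.48.

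The other proteins with an N-terminal module related to that of the binding proteins had more higher than lower genes. Of 13 listed all were found and 9 were kept, with a median log2 change of 0.65. Of the kept ones 4 were higher by over 2-fold, 1 was lower by over 2-fold and 4 lay within 2-fold. Over all kept genes the shares were 8.47% higher and 10.9% lower, with a median of -0.14. Cyr61, a matricellular CCN protein, was at 113.9 RPKM in Dnmt1+/+ and 709.0 RPKM in Dnmt1-/- MEFs, and its relative Ctgf, connective tissue growth factor, was at 47.3 and 150.2 RPKM. Crim1, a membrane protein that binds bone morphogenetic proteins, was at 31.6 and 65.9 RPKM, and the protease Htra3 was at 0.631 and 4.18 RPKM, passing the filter through the Dnmt1-/- library alone. Wisp2, a CCN protein that lacks the C-terminal module, was the lower gene, at 17.4 and 5.89 RPKM. Wisp1 and Nov, also CCN proteins, were within 2-fold, so the CCN genes too moved in both directions.

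**Figure D5:**
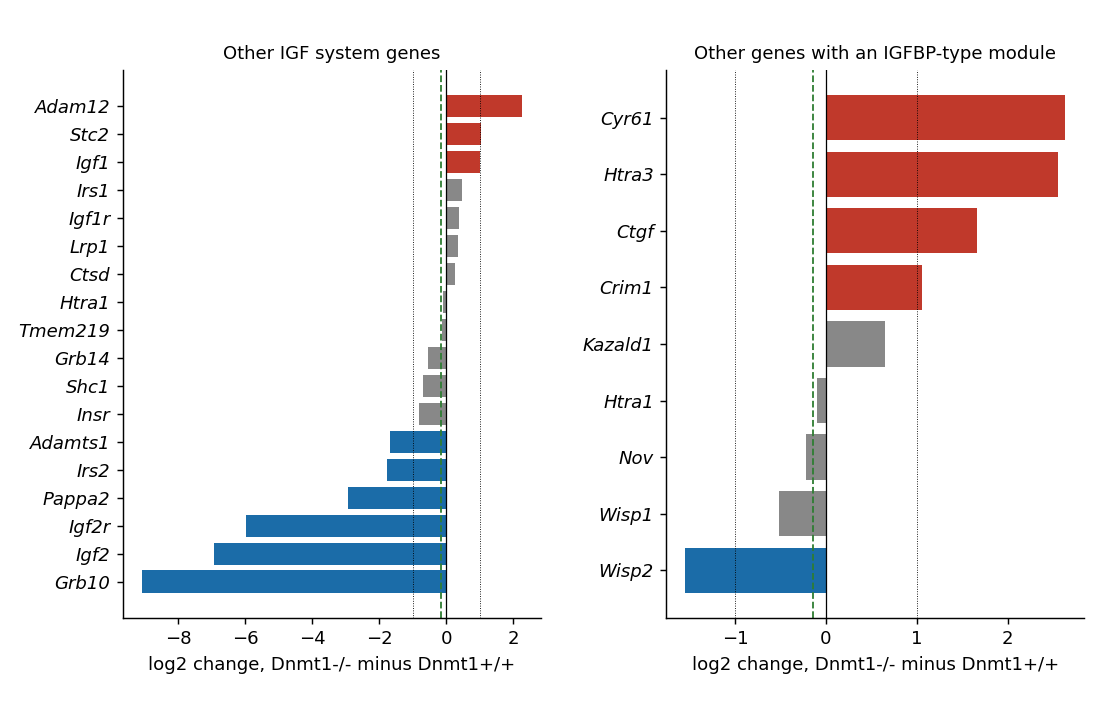
Log2 change, Dnmt1-/- minus Dnmt1+/+, of the 18 kept genes of the other IGF system list and the 9 kept genes of the IGFBP-type module list, 1 bar per gene, on x axes of different range. Red bars are more than 2-fold higher, blue more than 2-fold lower and grey within 2-fold, dotted lines mark 2-fold, and the green dashed line marks the median of all kept genes, -0.14.

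The kept gene closest to each Igfbp gene in its pair of values was found by Euclidean distance on the log2 scale over the 2 libraries. For Igfbp4 it was Cyr61 at a distance of 0.27, and for Igfbp7 it was Ctgf at 0.075, both of them on the module list. For Igfbp6 it was the kinase gene Sgk1, at 27.4 RPKM in Dnmt1+/+ and 83.6 RPKM in Dnmt1-/- MEFs and a distance of 0.093. For Igfbp2 it was Tcea3, a transcription elongation factor gene, at 11.9 and 0.543 RPKM and a distance of 0.30. For Igfbp5 it was Ntrk3, the neurotrophin-3 receptor gene, at 1.13 and 0.0312 RPKM and a distance of 0.087. Igfbp3 had no close match, and Sytl5 at 1.53 was the nearest, since every kept gene has at least 1 RPKM in either library. Within a distance of 0.5 lay 2 kept genes for Igfbp4 and for Igfbp2, 11 for Igfbp7, and 27 for Igfbp6 and for Igfbp5. Each of these counts includes the Igfbp gene itself. With only 2 libraries the matches are likenesses of level and change.

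The fibroblast label was checked against 14 fibroblast markers, of which all 14 reached 1 RPKM in Dnmt1+/+ and 13 in Dnmt1-/- MEFs, with summed levels of 6713 and 5325 RPKM. The exception was Thy1, at 4.84 and 0.129 RPKM. Single markers differed in both directions, with 2 higher by over 2-fold in Dnmt1-/- MEFs, 4 lower by over 2-fold and 8 within 2-fold. Over all kept genes the shares were 8.47% higher and 10.9% lower. The higher markers were S100a4, at 289.6 and 1262 RPKM, and Pdgfra, at 6.95 and 18.7 RPKM. The lower markers besides Thy1 were Postn, at 176.6 and 13.7 RPKM, Fn1, at 663.7 and 235.5 RPKM, and Col1a2, at 1241 and 475.9 RPKM. Thy1 passed the filter through the Dnmt1+/+ library alone. Of 6 endothelial markers 0 reached 1 RPKM in either library, with sums of 0.475 and 0.679 RPKM and Tie1 listed at 0. Of 7 epithelial markers found, 0 and 1 did, with sums of 0.363 and 2.19 RPKM. The entry that did in Dnmt1-/- MEFs lists Krt14 together with Krt17, which is not on the list. It was at 0.0349 and 1.46 RPKM, and the value cannot be assigned to Krt14 alone. Of 5 hepatocyte markers 1 and 0 did, with sums of 1.49 and 1.24 RPKM and Alb and Ttr listed at 0 in both. Of 6 skeletal muscle markers 1 did in each library, Acta1, and the list summed to 29.2 and 43.0 RPKM. Of 6 macrophage and blood markers, 1 did in Dnmt1+/+ and 3 in Dnmt1-/- MEFs, where Csf1r was at 6.08 RPKM and the list summed to 12.99 against 2.19 RPKM, while Ptprc and Emr1 were listed at 0 in both. The part of other cell types in the Igfbp differences was not tested, and fewer cells of a kind and less RNA per cell cannot be told apart in bulk libraries.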

How the data were processed

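Dnmt1+/+ and Dnmt1-/- MEFs were profiled by strand-specific mRNA-seq, with 1 library of each. Per the labels and the study's methods, the authors used TopHat for mapping to mm9, Cufflinks for transcript assembly and Cuffdiff for abundance, and deposited RPKM with a status for each entry. Versions, any further scaling between libraries and the use of strand in counting are not given in the sources used here. The columns are headed wt and ko, which the study defines as Dnmt1+/+ and Dnmt1-/- MEFs. The table gives no read counts, so no interval or detection limit could be computed, and a value of 0 is written as listed at 0.

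Values were put on the log2(RPKM + 0.1) scale with Python 3.11.15, pandas 2.3.3 and numpy 2.4.6, and figures were drawn with matplotlib 3.10.9. Genes were kept with status OK, a symbol and at least 1 RPKM in one library or the other. With 1 library per genotype no test was run, and genes were counted past 2-fold. Alternatives were pseudocounts of 1 and 0.01, no filter or a mean of at least 1 RPKM, a threshold of 1.5-fold, subtraction of the median change, and, added after the data were seen, no pseudocount. Neighbours are kept genes whose loci lie within 250 kb. The loci in the table count from 0 at their start, were shifted to count from 1, and overlapped the GENCODE vM1 gene of the same symbol on NCBIM37 for 10726 of 10751 kept genes. CG counts come from NCBIM37 and, as a second count, from RefSeq promoter windows on GRCm38. The genes named are the 6 members, listed genes past 2-fold, the ligands and receptors, the nearest kept neighbours, the nearest gene by level, and Dnmt1. Other genes named (further members of the lists within 2-fold or not kept, Spink2, Hopx, Rest, Polr2b, 2610024G14Rik, Smarcal1, Tns4, Rapgefl1, Krt8, Krt18, Hox genes and single markers) were picked with their values in view. The members and the gene lists were chosen with earlier results of these data known. Protein sequences were not used here.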

Additional observations from a re-analysis of the deposited data

How the results depend on the processing

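No paired analysis was possible because each genotype has 1 library, and for the same reason no library could be left out. Of 62 values under alternative settings, 55 lay within 1.5 times the main value, 7 moved further and 0 reversed. A pseudocount cannot alter the sign of a log2 change, and counts were not scored for reversal, so 0 reversed is no check of direction. Within 1.5 times the main value, the other IGF system genes lower by over 2-fold numbered 8 in place of 6 without the filter or at 1.5-fold. Likewise the higher ones numbered 2 in place of 3 at a mean of 1 RPKM, and the higher module genes 5 in place of 4 at 1.5-fold. With a mean of at least 1 RPKM as the filter, the number of Igfbp genes more than 2-fold lower was 1 in place of 2, since Igfbp5 no longer passed. With a pseudocount of 1, the number of other IGF system genes more than 2-fold higher was 1 in place of 3, and the log2 change of Igfbp3 was -0.16 in place of -0.64. The log2 change of Igfbp5 was -1.03 with a pseudocount of 1, -4.97 with 0.01 and -5.44 with none, against -3.25. The log2 ratio of the summed RPKM was 1.49 without Igfbp4, against 2.47. The 3 higher Igfbp genes were higher by more than 2-fold under each of these settings. The depth behind the low values, such as those of Igfbp3 and Igfbp5, is not in the table, and their changes are the least certain here.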

Other observations

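Igfbp6 shares chromosome 15 with the HoxC cluster and Igfbp4 shares chromosome 11 with the HoxB cluster, a feature picked out once the values were known. Between the ends of Igfbp6 and Hoxc13 were 771.6 kb and 17 kept genes, with 1 higher by over 2-fold in Dnmt1-/- MEFs, 0 lower by as much and a median log2 change of 0.09. Igfbp4 was 2673 kb from Hoxb1, with 47 kept genes between them, 1 higher by over 2-fold, 0 lower by as much and a median log2 change of -0.01. In either interval all but 1 of the kept genes were within 2-fold. Over all kept genes the shares were 8.47% higher and 10.9% lower by over 2-fold. Whether these intervals differ from that background was not tested.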
